A study of Schizosaccharomyces pombe with 12 samples.

Results

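The transcripts of 6 fission yeast (Schizosaccharomyces pombe) genes were followed through histone H3 and set2 mutants: spt16 (SPBP8B7.19) and pob3 (SPBC609.05) of the FACT histone chaperone, spt6 (SPAC1F7.01c), paf1 (SPAC664.03) and tpr1 (SPAC27D7.14c) of the Paf1 complex, and rtf1 (SPAC22F8.07c). They were taken by name, 6 of the 7013 gene rows in the count files, and all 6 passed the filter on low counts that left 6602 genes to test. The first 5 are transcription elongation genes. The row named rtf1 is not one: the NCBI RefSeq annotation gives its product as the RNA polymerase I termination factor Rtf1, and it lists rtf1 as an older name of prf1 (SPBC651.09c), the Rtf1 relative that works with the Paf1 complex. rtf1 is therefore described apart from the other 5, and prf1 is given beside the Paf1 genes.

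The study measured total RNA, depleted of ribosomal RNA and made into strand-specific libraries, from cells grown in rich medium (YES) at 25 °C. There were 4 groups of 3 libraries: H3-G34R, in which glycine in the tail of histone H3 is replaced by arginine, H3-G34V, in which it is replaced by valine, set2Δ (labelled Set2D), which lacks the gene for the H3 lysine methyltransferase Set2 and has wild-type H3, and WT, which has wild-type H3 and set2. The labels do not say which H3 gene copies carry the G34 changes. They do not say whether the replicates were grown apart either, so the p-values rest on a spread that may be technical.

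As background, FACT is a heterodimer of Spt16 and Pob3 that loosens nucleosomes ahead of RNA polymerase II and helps put histones back behind it. Spt6 travels with the elongating polymerase, binds histones H3 and H4, and is needed in yeasts for normal H3 methylation by Set2. The Paf1 complex binds the same polymerase, promotes H2B ubiquitylation and H3 methylation, and in fission yeast limits the silencing of genes by small RNAs. Tpr1 is the fission yeast counterpart of budding yeast Ctr9, the large scaffold subunit of that complex.

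Between 65797517 and 228726069 reads per library were counted in genes, and the 6 genes had between 4991 counts (pob3) and 116231 counts (spt6) in a library. Counting error alone was thus at most 1.42% of a value. Levels are given as CPM (counts scaled to library size), scaled by trimmed mean of M-values (TMM). They are not corrected for gene length and are compared between groups, not between genes. The set2 transcript was at 4.38, 3.70 and 3.69 CPM in the 3 set2Δ libraries, against 133, 129 and 122 CPM in WT, as labelled. It was at 109, 109 and 112 CPM in G34R, below all 3 WT libraries (log2 fold change −0.22, adjusted p 0.0002), and at 126, 129 and 135 CPM in G34V (adjusted p 0.63). Every nonzero count of set2Δ replicate 3 was even (100%, against 48.4% to 50.6% in the other 11 libraries), and its counts were used as deposited and, as an alternative, halved. Reads outside annotated genes took 2.39% to 2.44% of the total in G34R, 2.35% to 2.44% in G34V and 3.21% to 3.30% in set2Δ, against 1.99% to 2.03% in WT. Their part in the differences below was not tested. In RNA from whole cultures, fewer cells of a type and less RNA per cell cannot be told apart.

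The 6 genes stayed close to their WT levels in all 3 mutants. The group mean farthest from WT was that of pob3 in G34R, a difference of −9.15% that did not pass the test. A gene was called at an adjusted p under 0.05. All adjusted p-values here come from the quasi-likelihood test of edgeR, with Benjamini-Hochberg adjustment over all 6602 genes. In G34R, 1 of the 6 was called (spt16, lower), where 53.4% of all tested genes were called, 26.8% higher and 26.6% lower. In G34V, 2 of the 6 were called (rtf1 higher, tpr1 lower), where 50.1% of all tested genes were called, 25.1% (1657) higher and 25.0% (1649) lower. With upper quartile scaling that split became 2032 higher and 1165 lower. In set2Δ, 4 of the 6 were called (tpr1 higher and spt6, spt16 and rtf1 lower), where 70.1% of all tested genes were called, 34.5% higher and 35.6% lower. Upper quartile scaling moved the split in set2Δ from 2276 higher and 2351 lower to 2671 and 1876. In G34R it moved the split from 1771 higher and 1753 lower to 1960 and 1503. The libraries of mutant and WT did not overlap for 1 of the 6 genes in G34R (62.4% of all tested genes), 2 in G34V (57.9%) and 3 in set2Δ (71.9%). These counts of the 6 are near or below the shares over all genes. Without rtf1, 1 of 5 was called in G34R, 1 of 5 in G34V and 3 of 5 in set2Δ. The 3 comparisons share the same WT libraries.

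**Figure D1:**
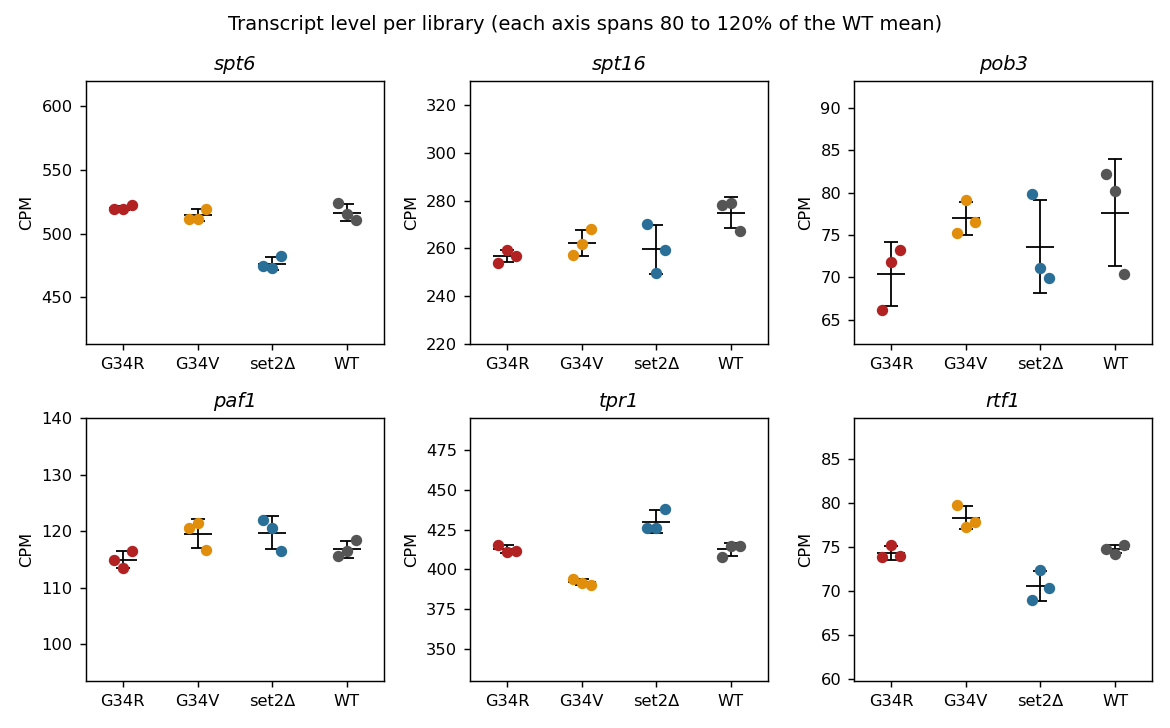
Level of each of the 6 genes in each of the 12 libraries, in TMM-scaled CPM, with 1 panel per gene. Points are libraries and bars the group mean with its SD (n = 3). The set2Δ libraries of spt6 lie between 473 and 482 CPM, below every other library, and the libraries of pob3 and paf1 in each mutant overlap those of WT. Each axis is cut to a band around the WT mean and does not start at 0.

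Of the FACT pair, spt16 fell slightly in G34R and set2Δ, and pob3 was not called in any mutant. spt16, the large FACT subunit, was at 254, 259 and 257 CPM in the G34R libraries, at 257, 262 and 268 CPM in G34V and at 270.0, 249.5 and 259 CPM in set2Δ, against 278, 279 and 267 CPM in WT. All 3 G34R libraries lay below all 3 WT libraries, while single libraries of G34V and set2Δ reached the lowest WT value. spt16 fell by 6.61% in G34R (257 ± 2.57 CPM, against 275 ± 6.54 CPM in WT, SD, n = 3 each; log2 fold change −0.10, 95% interval −0.16 to −0.04, adjusted p 0.010). This call held with each library left out in turn and was lost when noncoding RNAs were left out by name (log2 fold change −0.07, adjusted p 0.059).

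In set2Δ, spt16 fell by 5.58% (259.6 ± 10.2 CPM, against 275 ± 6.54 CPM in WT; log2 fold change −0.08, interval −0.15 to −0.02, adjusted p 0.020). It did not pass without WT replicate 1 (adjusted p 0.092), WT replicate 2 (0.071) or set2Δ replicate 2 (0.11), nor with upper quartile scaling (−0.04, 0.26). In G34V its log2 fold change was −0.07 (interval −0.13 to −0.01, adjusted p 0.066), and it passed without WT replicate 3 (0.034), set2Δ replicate 1 (0.039) or set2Δ replicate 2 (0.047). Between any pair of mutants spt16 did not pass (adjusted p 0.40 to 0.68).

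pob3, the smaller FACT subunit, was at 66.1, 71.8 and 73.2 CPM in G34R, at 75.2, 79.1 and 76.6 CPM in G34V and at 79.9, 71.1 and 69.9 CPM in set2Δ, against 82.2, 80.2 and 70.4 CPM in WT. WT replicate 3 lay about as low as the G34R and set2Δ libraries, so every mutant overlapped WT. pob3 was not called in any comparison with WT: the log2 fold change was −0.14 in G34R (interval −0.28 to 0.01, adjusted p 0.095), −0.01 in G34V (−0.16 to 0.13, 0.89) and −0.08 in set2Δ (−0.22 to 0.07, 0.31). Without WT replicate 3 it passed in G34R (log2 fold change −0.20, adjusted p 0.0085) and in set2Δ (−0.14, 0.035), so 1 WT library decided these calls.

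The spread of pob3 was wide for its level. Its coefficient of variation was 5.33% in G34R, 2.56% in G34V, 7.39% in set2Δ and 8.11% in WT. Among the 3217 tested genes between 50 and 600 CPM, it exceeded 94.6% of genes in G34R, 61.1% in G34V, 96.6% in set2Δ and 98.9% in WT. In set2Δ, both FACT genes were highest in replicate 1 (270.0 CPM for spt16 and 79.9 CPM for pob3).

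Within a library, the ratio of spt16 to pob3 counts did not separate any mutant from WT. Its log2 was 1.87 ± 0.067 in G34R, 1.77 ± 0.041 in G34V and 1.82 ± 0.067 in set2Δ, against 1.83 ± 0.086 in WT (SD, n = 3 each). The two-sided exact permutation test gave p = 0.5, 0.5 and 0.9 in that order, where the smallest p that 3 against 3 libraries allow is 0.1. Such a ratio needs no scaling between libraries but also holds the length of both genes, so only its differences between groups are read.

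**Figure D2:**
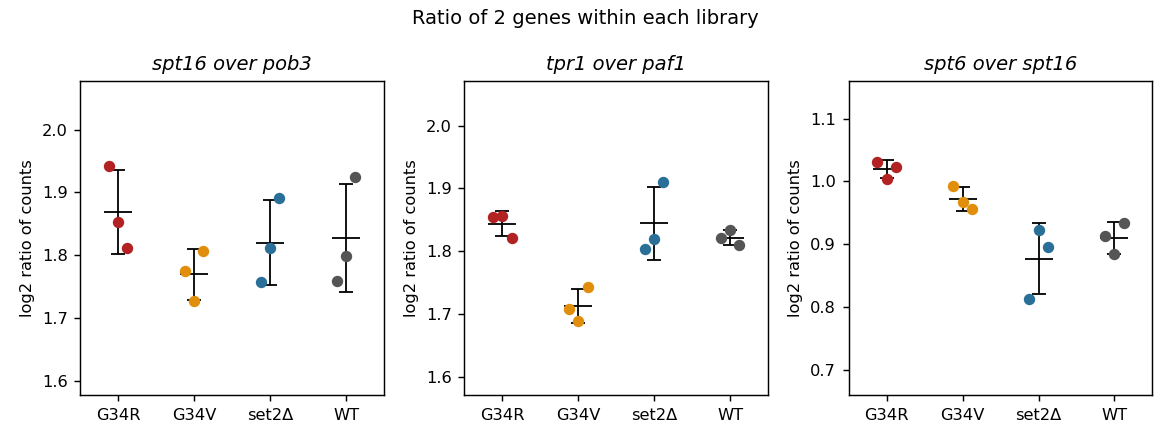
log2 ratio of the counts of 2 genes in the same library, for spt16 over pob3, tpr1 over paf1 and spt6 over spt16, in G34R, G34V, set2Δ and WT. Points are libraries and bars the mean with its SD (n = 3). The tpr1 over paf1 ratio of all 3 G34V libraries lies below WT, and the spt6 over spt16 ratio of all 3 G34R and all 3 G34V libraries lies above WT.

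nhp6, which encodes the HMG-box protein that works with FACT, rose in set2Δ. It was at 231, 237 and 222 CPM in G34R, at 221, 212 and 205 CPM in G34V and at 273, 247 and 232 CPM in set2Δ, against 203, 216 and 199.8 CPM in WT. It rose by 21.5% in set2Δ (log2 fold change 0.28, SE 0.053, adjusted p 0.00044) under every alternative tried. In G34R its log2 fold change was 0.16 (adjusted p 0.025), a call lost without WT replicate 1 (0.069), WT replicate 3 (0.090), G34R replicate 1 (0.053) or G34R replicate 2 (0.089). In G34V it was not called (0.05, adjusted p 0.50).

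spt6 fell in set2Δ and was not called against WT in either H3 mutant. It was at 519, 519.7 and 522 CPM in G34R, at 512, 512 and 519.7 CPM in G34V and at 474, 473 and 482 CPM in set2Δ, against 524, 515 and 511 CPM in WT. The set2Δ libraries lay below the other 9, whose values overlapped one another. spt6 fell by 7.74% in set2Δ (477 ± 5.18 CPM, against 517 ± 6.62 CPM in WT, SD, n = 3 each; log2 fold change −0.12, interval −0.17 to −0.06, adjusted p 0.00048).

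For the H3 mutants the intervals bounded any spt6 difference from WT narrowly. The log2 fold change of spt6 against WT was 0.01 in G34R (interval −0.04 to 0.06, adjusted p 0.73) and −0.01 in G34V (−0.06 to 0.05, 0.86). The difference between H3 mutant and set2Δ was itself tested: spt6 was 9.22% higher in G34R than in set2Δ (adjusted p 0.00022) and 7.96% higher in G34V than in set2Δ (0.00093). All 3 spt6 differences from set2Δ held in 22 of 22 alternatives, with adjusted p up to 0.020 for set2Δ against WT.

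Set against spt16 in the same library, spt6 lay above WT in every G34R and G34V library, a separation that the test used could not decide. Of the single genes, spt16 was called lower in G34R, spt6 was not, and neither was called in G34V. The log2 ratio of spt6 to spt16 counts was 1.02 ± 0.014 in G34R, 0.97 ± 0.019 in G34V and 0.88 ± 0.057 in set2Δ, against 0.91 ± 0.025 in WT. The difference from WT was 0.11 in G34R and 0.06 in G34V, with no overlap between libraries. Both reached the smallest p the exact permutation test allows (0.1), or 0.3 after adjustment over the 9 ratio tests, and set2Δ did not separate (p = 0.6). With so few libraries this test cannot pass 0.05, so it leaves both differences undecided.

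iws1 encodes the protein that binds Spt6 on the elongating polymerase. It was at 165, 166 and 168 CPM in G34R, at 159, 159.8 and 161 CPM in G34V and at 137, 128 and 136 CPM in set2Δ, against 164, 164 and 164 CPM in WT. It fell by 18.5% in set2Δ (log2 fold change −0.29, SE 0.025, adjusted p 3.6e-08). It was not called in G34R (adjusted p 0.53) or G34V (0.24). spt6 and iws1 were thus both lower in set2Δ, as were 35.6% of all tested genes, and both uncalled in the H3 mutants. The iws1 libraries nevertheless lay above all WT libraries in G34R and below them in G34V, while those of spt6 overlapped WT in both.

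**Figure D3:**
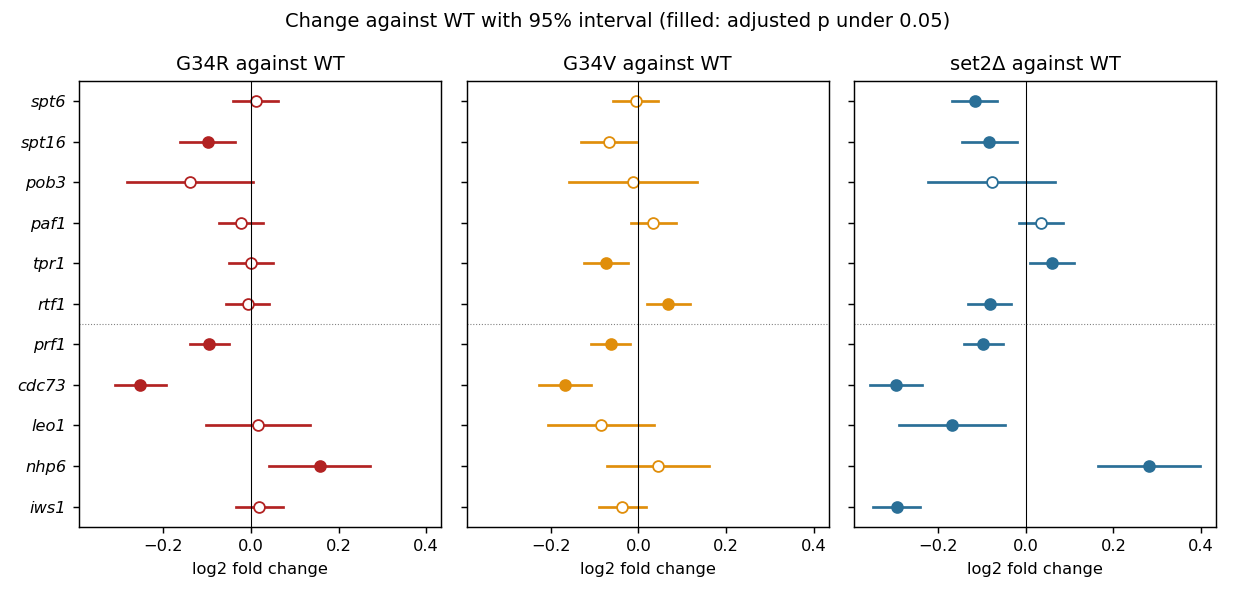
log2 fold change of each of the 6 genes and of prf1, cdc73, leo1, nhp6 and iws1 in G34R, G34V and set2Δ, each against WT, with its 95% interval from the edgeR fit. Filled points passed an adjusted p of 0.05. The 6 genes stay between −0.14 and 0.07, while cdc73, iws1 and nhp6 reach −0.30, −0.29 and 0.28 in set2Δ.

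In the Paf1 complex, paf1 itself was not called against WT in any mutant, and tpr1 moved in opposite directions in G34V and set2Δ. paf1 was at 115, 113 and 117 CPM in G34R, at 121, 121 and 117 CPM in G34V and at 122, 121 and 117 CPM in set2Δ, against 116, 116 and 118 CPM in WT. Its 12 libraries all lay between 113 and 122 CPM. The log2 fold change was −0.02 in G34R (interval −0.07 to 0.03, adjusted p 0.43), 0.03 in G34V (−0.02 to 0.08, 0.24) and 0.04 in set2Δ (−0.02 to 0.09, 0.19). Under upper quartile scaling paf1 passed in G34V (0.06, adjusted p 0.033) and in set2Δ (0.08, 0.0070), and with noncoding RNAs left out by name it passed in set2Δ (0.07, 0.018).

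tpr1 was at 416, 411 and 412 CPM in G34R, at 394, 391 and 390.4 CPM in G34V and at 426, 426 and 438 CPM in set2Δ, against 408, 415 and 415 CPM in WT. All G34V libraries lay below WT, all set2Δ libraries above it, and G34R overlapped it. tpr1 fell by 5.01% in G34V (392 ± 1.88 CPM, against 413 ± 3.97 CPM in WT; log2 fold change −0.07, SE 0.023, adjusted p 0.016), a call lost without G34V replicate 3 (0.051), with upper quartile scaling (−0.04, 0.15) and with noncoding RNAs left out by name (0.063). It rose by 4.20% in set2Δ (430.0 ± 7.15 CPM, against 413 ± 3.97 CPM in WT; log2 fold change 0.06, interval 0.01 to 0.11, adjusted p 0.033). The set2Δ call did not hold without WT replicate 1 (0.073), WT replicate 2 (0.051) or set2Δ replicate 3 (0.11). In G34R tpr1 was level with WT (log2 fold change 0.00, interval −0.05 to 0.05).

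The tpr1 difference between G34V and set2Δ held in 22 of 22 alternatives. It was −8.84% (G34V against set2Δ; log2 fold change −0.13, adjusted p 0.00014). Within a library, the log2 ratio of tpr1 to paf1 counts was 1.84 ± 0.020 in G34R, 1.71 ± 0.027 in G34V and 1.84 ± 0.058 in set2Δ, against 1.82 ± 0.012 in WT. G34V lay 0.11 below WT with no overlap, at the smallest p of the exact permutation test (0.1, or 0.3 after adjustment over 9 tests), and G34R and set2Δ overlapped WT (p = 0.3 and 0.9).

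Of the 3 other genes listed with the complex, cdc73 and prf1 were called lower in all 3 mutants and leo1 in set2Δ. cdc73, the counterpart of human CDC73, was at 54.7, 54.3 and 54.5 CPM in G34R, at 57.1, 57.1 and 59.2 CPM in G34V and at 51.1, 52.4 and 54.9 CPM in set2Δ, against 64.9, 63.7 and 66.1 CPM in WT. None of the 9 mutant libraries reached the lowest WT library. cdc73 fell by 16.1% in G34R (log2 fold change −0.25, adjusted p 2.4e-06), by 11.0% in G34V (−0.17, 0.00016) and fell by 18.5% in set2Δ (−0.30, 1.4e-07), each in 22 of 22 alternatives. In the RefSeq annotation cdc73 overlaps prp16 on the opposite strand, which had log2 fold changes of −0.11, −0.16 and −0.20 in G34R, G34V and set2Δ. Whether shared reads bear on either gene was not tested.

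prf1 was at 196, 196 and 191 CPM in G34R, at 201, 196 and 199 CPM in G34V and at 196, 193 and 193 CPM in set2Δ, against 205, 208 and 209.6 CPM in WT. It fell in G34R (log2 fold change −0.09, adjusted p 0.0013) and in set2Δ (−0.10, 0.00065) in all 22 alternatives. Its fall in G34V (−0.06, 0.020) was lost without WT replicate 2 (0.056), WT replicate 3 (0.062) or G34V replicate 2 (0.089), with upper quartile scaling (−0.03, 0.22), with noncoding RNAs left out by name (−0.04, 0.093) and with those 2 groups fitted alone (0.065). leo1 was at 72.4, 63.1 and 62.5 CPM in set2Δ, against 75.6, 77.0 and 69.8 CPM in WT (log2 fold change −0.17, adjusted p 0.016). That call was lost without WT replicate 1 (0.059), WT replicate 2 (0.063), set2Δ replicate 2 (0.065) or set2Δ replicate 3 (0.076). leo1 was not called in G34R (0.02, adjusted p 0.83) or G34V (−0.09, 0.22).

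Of the 5 genes paf1, tpr1, prf1, cdc73 and leo1, 2 were called in G34R and 3 in G34V, all lower. In set2Δ 1 was higher and 3 were lower. These shares stand against 53.4%, 50.1% and 70.1% of all tested genes called in G34R, G34V and set2Δ. Those called lower were 26.6%, 25.0% and 35.6% in that order. The median log2 fold change of the 5 genes was −0.02, −0.07 and −0.10 in that order, against medians over all tested genes of −0.00, −0.01 and −0.01.

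rtf1, whose product blocks replication forks at the barrier beside the mating-type locus of fission yeast and is related to RNA polymerase I terminators, had its own order. It was at 73.9, 75.3 and 74.0 CPM in G34R, at 79.8, 77.4 and 77.9 CPM in G34V and at 69.0, 72.5 and 70.4 CPM in set2Δ, against 74.8, 74.3 and 75.2 CPM in WT. All G34V libraries lay above WT, all set2Δ libraries below it, and G34R overlapped it. rtf1 rose by 4.83% in G34V (78.4 ± 1.31 CPM, against 74.8 ± 0.463 CPM in WT; log2 fold change 0.07, interval 0.02 to 0.12, adjusted p 0.023). The G34V call did not hold without WT replicate 2 (adjusted p 0.071) or G34V replicate 1 (0.10). rtf1 fell by 5.56% in set2Δ (70.6 ± 1.75 CPM, against 74.8 ± 0.463 CPM in WT; log2 fold change −0.08, adjusted p 0.0048). This held with each library left out and was lost under upper quartile scaling (0.14) and with noncoding RNAs left out by name (0.064). In G34R its log2 fold change was −0.01 (interval −0.06 to 0.04, adjusted p 0.80).

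Of the 4 other fork barrier and Myb-type terminator genes listed (rtf2, swi1, swi3, reb1), 1 was called in G34R and 2 in G34V, all higher, and in set2Δ 1 was higher and 2 were lower. Of all tested genes, 53.4% were called in G34R (26.8% higher), 50.1% in G34V (25.1% higher) and 70.1% in set2Δ (34.5% higher and 35.6% lower). The largest shift was that of swi1, a fork protection gene, in set2Δ (log2 fold change −0.37, adjusted p 1.6e-09). reb1, which encodes a Myb-type terminator protein, also fell in set2Δ (−0.16).

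The mutants were also set directly against each other. Between G34R and G34V, 2 of the 6 passed (tpr1 higher and rtf1 lower in G34R), where 50.5% of all tested genes passed. tpr1 was 5.28% higher in G34R than in G34V (adjusted p 0.016, lost without G34R replicate 1 at 0.053 and with upper quartile scaling at 0.056). rtf1 was lower in G34R than in G34V, a difference of −5.12% (adjusted p 0.013, lost without G34V replicate 1 at 0.064).

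The libraries of G34R and G34V also stood apart for pob3 (66.1 to 73.2 CPM in G34R and 75.2 to 79.1 CPM in G34V; log2 fold change −0.13, adjusted p 0.13) and for paf1 (113 to 117 CPM in G34R and 117 to 121 CPM in G34V, which adjoin; −0.06, 0.056), and neither was called. For paf1 this passed without G34V replicate 3 (0.022), set2Δ replicate 1 (0.049) or set2Δ replicate 3 (0.044), and for pob3 when those 2 groups were fitted alone (0.024). In all, 4 of the 6 genes had no overlap between G34R and G34V libraries, as had 60.7% of all tested genes.

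Between G34R and set2Δ, 4 of the 6 passed, where 69.4% of all tested genes passed. spt6 and rtf1 were higher in G34R, and tpr1 and paf1 were lower. Libraries of G34R and set2Δ did not overlap for 3 of the 6, as for 72.0% of all tested genes. rtf1 was 5.32% higher in G34R than in set2Δ (adjusted p 0.0094, lost with upper quartile scaling at 0.087). tpr1 was lower in G34R, a difference of −4.03% (0.034, lost without G34R replicate 2 at 0.095, G34R replicate 3 at 0.082 or set2Δ replicate 3 at 0.11). The tpr1 call was also lost with those 2 groups fitted alone (0.1). paf1 was lower in G34R with overlapping libraries, a difference of −3.94% (0.040), and this was lost without G34R replicate 1 (0.060), G34R replicate 2 (0.14), set2Δ replicate 1 (0.14) or set2Δ replicate 2 (0.10). The paf1 call was also lost with DESeq2 (0.062), with DESeq2 size factors in edgeR (0.051) and with those 2 groups fitted alone (0.077).

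Between G34V and set2Δ, 3 of the 6 passed, where 62.5% of all tested genes passed. spt6 and rtf1 were higher and tpr1 lower in G34V, each with no overlap between libraries (as for 64.9% of all tested genes) and in 22 of 22 alternatives. The rtf1 difference was the largest of any of the 6 genes in any pair of groups, 11.0% higher in G34V than in set2Δ (log2 fold change 0.15, interval 0.10 to 0.20, adjusted p 4.5e-05).

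The order of the group means differed from gene to gene, apart from spt16 and pob3, which shared theirs. spt6 ran, from high to low, G34R, WT, G34V, set2Δ, of which only set2Δ stood apart. spt16 ran WT, G34V, set2Δ, G34R, where no difference between neighbours was called but WT stood above set2Δ and G34R. pob3 had the same order as spt16, and no pair of groups was called. paf1 ran set2Δ, G34V, WT, G34R, where no difference between neighbours was called. Its ends differed by a call that held in 14 of 22 alternatives. tpr1 ran set2Δ, G34R, WT, G34V, where G34R and WT could not be told apart and set2Δ and G34V stood at the ends. rtf1 ran G34V, WT, G34R, set2Δ, where WT and G34R could not be told apart.

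Against the whole transcriptome these ranges were narrow. The highest and lowest group means of a gene differed by 1.11-fold for rtf1, 1.10-fold for pob3, 1.10-fold for tpr1, 1.09-fold for spt6, 1.07-fold for spt16 and 1.04-fold for paf1. On the log2 scale the range was 0.15 for rtf1 and 0.06 for paf1, against a median of 0.24 over all tested genes. Only 2.85% of tested genes had a narrower range than paf1, 10.3% than spt16, 17.8% than spt6, 19.7% than tpr1, 21.9% than pob3 and 24.4% than rtf1. The median size of the log2 fold change over the 6 genes was 0.017 in G34R, 0.051 in G34V and 0.080 in set2Δ, against 0.107, 0.098 and 0.170 over all tested genes. These ranges also depend on depth, since well-covered genes have less counting error, and this was not corrected for.

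**Figure D4:**
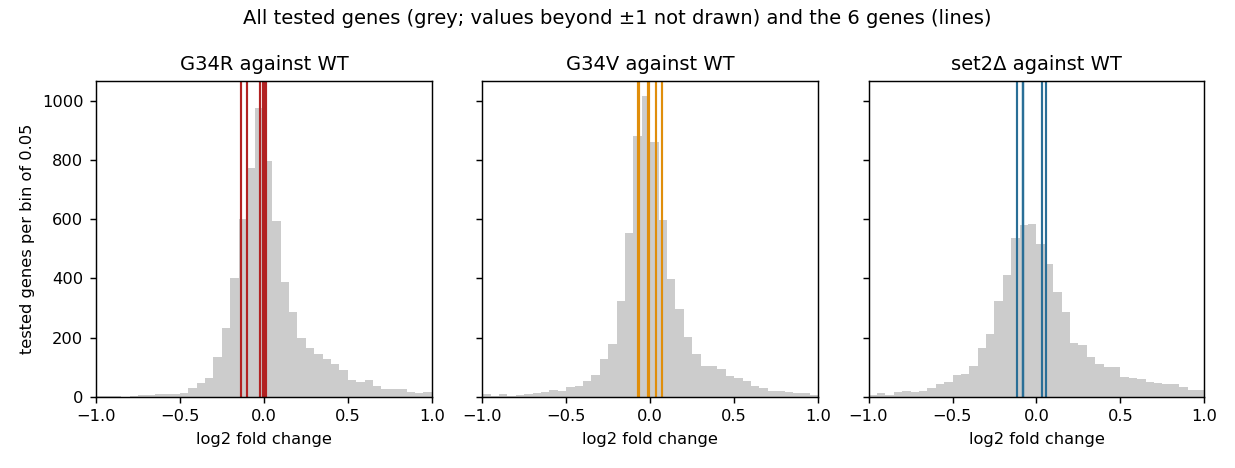
Histogram of the log2 fold change of the tested genes in G34R, G34V and set2Δ, each against WT (grey, genes per bin of 0.05), with the 6 genes as coloured vertical lines. The lines lie from −0.14 to 0.01 in G34R, from −0.07 to 0.07 in G34V and from −0.12 to 0.06 in set2Δ, within the central part of each histogram.

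Among the other elongation factors listed (8 genes), 1 was higher and 2 lower in G34R, 1 higher and 4 lower in G34V, and 4 higher and 3 lower in set2Δ. For this and the lists that follow, the shares of all tested genes called were 53.4% in G34R, 50.1% in G34V and 70.1% in set2Δ. Those called higher were 26.8%, 25.1% and 34.5% in that order, and those called lower 26.6%, 25.0% and 35.6%. spt5, which encodes the larger subunit of the Spt4-Spt5 factor that clamps the polymerase to DNA, had the largest shift. It was at 216, 217 and 221 CPM in G34R, at 207, 216 and 212 CPM in G34V and at 162, 152 and 159 CPM in set2Δ, against 249, 248 and 239 CPM in WT. It fell by 35.7% in set2Δ (log2 fold change −0.64, SE 0.028, adjusted p 1.1e-11) and also fell in G34R (−0.17, 0.0001) and G34V (−0.21, 1.5e-05). Its partner spt4 rose in set2Δ (0.33, 3.3e-06). tfs1, the elongation factor TFIIS gene, fell in set2Δ (−0.25), tfg3 rose in G34R (0.13), tfg1 fell in G34R (−0.09), and in G34V the gene pair of the ELL complex, ell1 (−0.15) and eaf1 (−0.16), fell. The tfg1 call did not hold without WT replicate 1 (0.057), WT replicate 2 (0.11) or G34R replicate 1 (0.091), nor with noncoding RNAs left out by name (0.12).

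The kinases and cyclins that act on the elongating polymerase (5 genes) gave 1 higher and 1 lower in G34R, 2 called in G34V, both higher, and 3 higher and 1 lower in set2Δ. lsk1, which phosphorylates the serine of the polymerase tail linked to Set2 binding, rose in set2Δ to 172, 169.6 and 169 CPM, against 118, 116 and 119 CPM in WT (log2 fold change 0.53, adjusted p 1.2e-12). It also rose in G34V (0.19, 1.3e-06). cdk9 fell in G34R (−0.09, 0.0035).

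The H2B ubiquitylation genes (4) gave 1 call in G34R and 2 in G34V, all lower, and in set2Δ 1 was higher and 2 were lower. brl1, a ubiquitin ligase gene of this pathway, fell in G34R (−0.13, adjusted p 0.0007), both brl1 (−0.09) and brl2 (−0.15) fell in G34V, and both fell in set2Δ (−0.23 each) while rhp6, the ubiquitin-conjugating enzyme gene, rose (0.13). The brl1 call in G34V was lost with upper quartile scaling (−0.06, 0.073). The list for the Set1 complex, which methylates H3 downstream of Paf1, held 8 rows, but RefSeq gives the product of the row spp1 as the DNA primase catalytic subunit. Without spp1, 2 of 7 Set1 genes were called in G34R and 2 in G34V, all lower, and in set2Δ 4 were higher and 2 were lower. shg1 (−0.23) and swd1 (−0.18) fell in G34R, and in set2Δ set1 fell (−0.11) while sdc1 rose (0.16). The primase gene spp1 rose in set2Δ (0.09).

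Of the Set2 and Clr6 complex II genes (7, set2 included), which act on chromatin behind the polymerase, 2 were higher and 3 lower in G34R, 2 higher and 1 lower in G34V, and 2 higher and 4 lower in set2Δ. The 4 lower in set2Δ include set2 itself, the deleted gene, whose call there was fixed by the genotype. alp13 rose in G34R (0.11), G34V (0.19) and set2Δ (0.25), pst2 rose in G34V (0.17), and prw1 fell in G34R (−0.09) and set2Δ (−0.22). The other histone chaperones and CHD remodellers (10 genes) gave 2 calls in G34R, both lower, 1 higher and 2 lower in G34V, and 3 higher and 5 lower in set2Δ. The HIRA genes hip1 (−0.46, adjusted p 1.3e-09) and hip3 (−0.41, 5.3e-11) fell in set2Δ and chz1 rose there (0.27), hrp1 fell in G34R (−0.14), and slm9 (−0.10) and hip3 (−0.07) fell in G34V. The hip3 call in G34V was lost with upper quartile scaling (−0.04, adjusted p 0.15) and with noncoding RNAs left out by name (−0.05, 0.056).

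The RNA polymerase II subunits (11 of 12 found) gave 5 calls in G34R, all lower, 1 call in G34V, which was higher, and 3 higher and 3 lower in set2Δ, where 53.4%, 50.1% and 70.1% of all tested genes were called in G34R, G34V and set2Δ. rpb8 (−0.22), rpb7 (−0.19) and rpb3 (−0.15) fell in G34R, rpb9 rose in G34V (0.22) and set2Δ (0.24), and in set2Δ rpb11 rose (0.14) and rpb5 fell (−0.15). No change of a list as a whole was tested.

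Some further calls in these lists, all of small size, were lost when 1 library was left out. lsg1, the gene of the gamma subunit of the Lsk1 kinase complex, was higher in G34R (0.10, lost without WT replicate 1 or G34R replicate 3) and in G34V (0.11, lost without WT replicate 1 or G34V replicate 3). Its call in set2Δ (0.10, higher) held with each library left out. pch1, the cyclin partner gene of cdk9, was higher in set2Δ (0.07, lost without WT replicate 2 or set2Δ replicate 2). rtf2 was higher in G34R (0.08, lost without WT replicate 1, WT replicate 2, G34R replicate 2 or G34R replicate 3), in G34V (0.09, lost without WT replicate 2 or G34V replicate 1) and in set2Δ (0.08, lost without WT replicate 2 or set2Δ replicate 1). nap1 was lower in G34R (−0.10, lost without WT replicate 1), and nap2 was higher in G34V (0.07, lost without WT replicate 3 or G34V replicate 3). In G34V, sdc1 (−0.08, lost without WT replicate 3 or G34V replicate 1) and prw1 (−0.07, lost without WT replicate 2, WT replicate 3 or G34V replicate 1) were lower. Those of sdc1 and prw1 were also lost with upper quartile scaling (−0.06 and −0.04) and with noncoding RNAs left out by name (−0.06 and −0.05). The G34V call of set1 (−0.06, adjusted p 0.039) was lost without any single library of G34R or G34V and without WT replicate 2 or 3. That of swi1 (0.06, 0.048) was lost without WT replicate 1 or 3 and without replicate 2 or 3 of G34R, G34V or set2Δ. Without the libraries named, the adjusted p of these genes lay between 0.051 and 0.18.

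**Figure D5:**
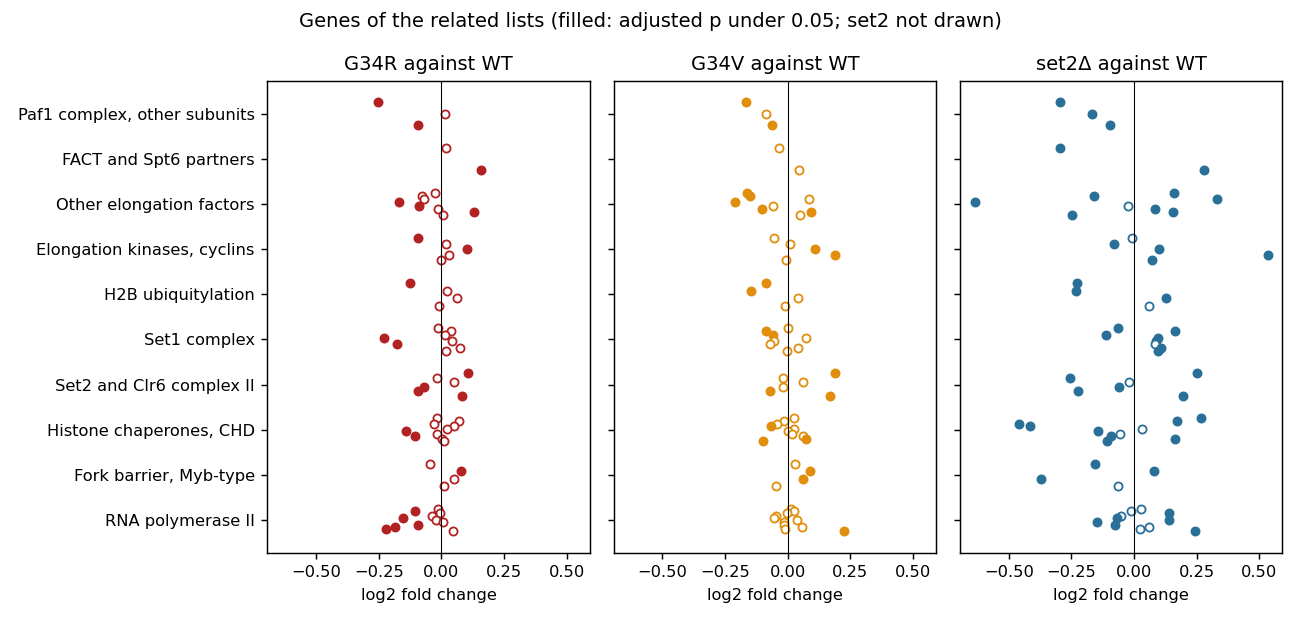
log2 fold change of every gene of the context lists in G34R, G34V and set2Δ, each against WT, with the lists down the page set2 itself not drawn, and the primase gene spp1 among the Set1 points. Filled points passed an adjusted p of 0.05. spt5 at −0.64 and lsk1 at 0.53 in set2Δ lie at the ends of the range.

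For each of the 6 genes, the genes whose log2(CPM + 0.5) followed it most closely over the 12 libraries were sought among the 5662 genes with a mean of at least 5 CPM. The 12 libraries fall into 4 groups and share their scaling, so these correlations describe likeness of group levels and carry no test. Closest to spt6 were vma11, a vacuolar ATPase subunit gene (Pearson r 0.984), cnx1, the calnexin gene (0.982), and mot1 (0.979). Closest to spt16 were the proteasome ATPase gene rpt1 (0.956), ubp1 (0.951) and pgr1 (0.919). Among those closest to pob3 were phb1 (0.927) and rex3 (0.871).

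For paf1, which had the narrowest range of the 6, the best likeness was weaker, at 0.878 for SPAC17A5.19, 0.874 for an antisense RNA of SPCC594.03 and 0.856 for cog6. Closest to tpr1 were fbp1, the gluconeogenic fructose bisphosphatase gene (0.954), skp1 (0.953) and slx8 (0.949). Closest to rtf1 were htd2 (0.949), zip2 (0.946) and ade7 (0.932). None of the 6 genes was among the 3 closest to another of them.

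The coding neighbours of the 6 genes on the chromosome are given here, and those named first were picked after their values were seen. In the RefSeq annotation, spt6 is followed on the same strand by mrc1, which had log2 fold changes of −0.08 in G34R (adjusted p 0.1), −0.13 in G34V (0.012) and −0.13 in set2Δ (0.0086). nop2 lies on the opposite strand and overlaps spt16, and its log2 fold changes were 0.07 in G34R (0.044), 0.21 in G34V (3.4e-05) and 0.14 in set2Δ (0.00053), where those of spt16 were −0.10, −0.07 and −0.08. Beside pob3, caf5 had −0.12, −0.39 and −0.35 in G34R, G34V and set2Δ. Beside paf1, arp8 had −0.08, 0.13 and 0.24, and beside tpr1, ssm4 had 0.02, −0.10 and −0.34. The other neighbours follow, with the groups in the same order. Beside spt6, has1 had −0.07, 0.08 and −0.04, and beside spt16, ubp3 had −0.07, −0.02 and −0.08. Beside pob3, rpl29 had −0.08, 0.00 and 0.02, and beside paf1, rps1602 had −0.10, 0.05 and 0.09. Beside tpr1, SPAC637.03 had 0.22, −0.34 and 0.08. Beside rtf1, pam1 had −0.06, −0.04 and 0.04, and sec24 had −0.05, −0.02 and −0.11.

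No row of the files is named as an antisense RNA of any of the 6 genes or of prf1, cdc73 or leo1, among 635 antisense rows. Antisense RNAs of these genes were therefore not measured here. In counting without strand, HTSeq by default sets aside reads that fall within genes on both strands. Here, of 18 noncoding RNAs enclosed by a coding gene on the other strand, 15 had over 3 counts in every library.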

How the data were processed

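The deposited files hold whole-number read counts per gene for 12 libraries, which the authors made from strand-specific, ribosome-depleted total RNA. Per the submitters' processing notes, CASAVA 1.7, cutadapt, STAR, SAMtools and HTSeq were used with genome build ASM294v2. Their settings are not known here. The 5 summary lines of each file (reads outside genes, ambiguous and the like) were left out.

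Genes were filtered with filterByExpr (6602 of 7013 kept) and fitted in 1 model of 12 libraries and 4 groups with edgeR 4.0.16 (R 4.3.3; TMM scaling, robust quasi-likelihood F-test, 8 residual degrees of freedom, Benjamini-Hochberg adjustment over all tested genes, called under 0.05). The common coefficient of variation was 3.32%. SE is the log2 fold change divided by the root of F. DESeq2 1.42.0 and limma 3.58.1 (voom) were alternatives, beside other scalings, filters and libraries left out. The fit was tested on simulated counts with the same spread set for every gene and 50 genes changed at each size. Of those changed 1.05-fold, 4%, 6% and 0% were called the right way in G34R, G34V and set2Δ against WT. Of those changed 1.1-fold, 50%, 46% and 28% were, and of those changed 1.25-fold, 96%, 100% and 94%. Log2 count ratios within a library were compared by exact permutation tests.

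The reference annotation at hand is of a later build, so it served for names, products and neighbours alone, and no coordinates, lengths or sequences are given. Of each list of related genes, the 3 with the lowest adjusted p in each mutant against WT were named where called, and the genes of like pattern were the 3 with the highest r, of which 1 is not reported here. The members and lists were chosen with earlier results of these data known.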

Additional observations from a re-analysis of the deposited data

How the results depend on the processing

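The counts of all tested genes called stayed within 1.5 times of those reported in all 22 alternatives of the 6 comparisons. No call of any of the 6 genes changed direction. Sign changes were all of differences that did not pass. Unless stated, values are log2 fold changes and the cause of a change was not tested.

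Of the 6 genes, the number called at an adjusted p under 0.01 was 0 in G34R against WT, 0 in G34V against WT, 2 in set2Δ against WT, 0 between G34R and G34V and 2 between G34R and set2Δ. At that threshold 1348 of all 6602 tested genes were higher and 1326 lower in G34R against WT. In G34V 1247 were higher and 1144 lower, and in set2Δ 2024 and 2026. Between G34R and G34V 1188 were higher and 1208 lower, and between G34R and set2Δ 1921 and 2022. With noncoding RNAs left out by name, the number of the 6 called was 0 in G34R and 1 in G34V against WT. Of the 5140 genes then tested, 1327 were higher and 1266 lower in G34R, and 1227 higher and 1189 lower in G34V. With only the 2 groups fitted, 2 of the 6 were called in set2Δ against WT and 2 between G34R and set2Δ. Of all genes then tested, 2309 of 6567 were higher and 2199 lower in set2Δ against WT. Between G34R and set2Δ, 2277 of 6573 were higher and 2255 lower in G34R. Leaving out 1 library gave, of the 6, 1 to 2 in G34R, 1 to 3 in G34V and 2 to 5 in set2Δ against WT, 1 to 3 between G34R and G34V and 2 to 4 between G34R and set2Δ. Over all tested genes it gave, in that order, 2977 to 3628, 2840 to 3399, 4374 to 4674, 2752 to 3428 and 4263 to 4652.

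With upper quartile scaling, calls were lost for spt16 (−0.040) and rtf1 (−0.040) in set2Δ and tpr1 (−0.044) in G34V, and gained for paf1 in G34V (0.064) and set2Δ (0.078). Signs turned for spt6 (0.024) and pob3 (0.017) in G34V and rtf1 (0.0067) in G34R. With noncoding RNAs left out by name, calls were lost for spt16 in G34R (−0.070) and set2Δ (−0.050), tpr1 in G34V (−0.053) and rtf1 in set2Δ (−0.050), and gained for paf1 in set2Δ (0.068). Signs turned for spt6 (0.016) and pob3 (0.0091) in G34V and for paf1 (0.0057) and rtf1 (0.021) in G34R. Fitted as 2 groups, spt16 (−0.074) and tpr1 (0.068) lost their calls in set2Δ, and at 0.01 so did spt16 in G34R (−0.099) and set2Δ (−0.083), tpr1 in G34V (−0.074) and set2Δ (0.059) and rtf1 in G34V (0.068).

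spt6 in G34V, reported as −0.01, was 0.00046 with DESeq2 size factors in edgeR, 0.00022 with DESeq2 and 0.00012 with 2 groups. paf1 between G34V and set2Δ, reported as about 0, was 0.0037, 0.0048 and 0.0032 under those settings and 0.0015 with limma. With group medians in place of means, the set2Δ minus WT difference was 0.012 for the spt16 over pob3 ratio and −0.0015 for tpr1 over paf1.

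With 1 library left out at a time, spt6 in G34V ran from −0.014 to 0.0070. spt16 ran from −0.088 to −0.054 in G34V and −0.11 to −0.055 in set2Δ, from −0.043 to 0.013 between G34R and set2Δ and from −0.013 to 0.044 between G34V and set2Δ. pob3 ran from −0.20 to −0.094 in G34R, −0.079 to 0.034 in G34V and −0.14 to −0.028 in set2Δ. paf1 between G34V and set2Δ ran from −0.021 to 0.013. tpr1 ran from −0.0062 to 0.0041 in G34R, −0.079 to −0.069 in G34V and 0.045 to 0.067 in set2Δ, and rtf1 from 0.053 to 0.077 in G34V. leo1 ran from −0.026 to 0.044 in G34R and set2 from −0.0086 to 0.054 in G34V. The set2Δ ratios ran from −0.043 to 0.041 for spt16 over pob3 and from −0.0099 to 0.044 for tpr1 over paf1.

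No paired analysis was possible because no label number links libraries across groups. The planned antisense comparison had no row to use. The 95% intervals of most of these genes reached about 0.05 to either side of the log2 fold change and that of pob3 about 0.15, which limits what these libraries can show.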
